A study of Rattus norvegicus with 16 samples.

Results

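Heat shock proteins and DnaJ chaperones were followed in volume-overloaded rat left ventricle, where 64 of the 14218 genes measured belonged to these families. A gene was a member where its annotated symbol was one of the numbered Hspa, Hspb, Hspd, Hspe or Hsph genes, began with Dnaj, or was Hsp90aa1, Hsp90ab1, Hsp90b1, Cryab or Bag3, provided that a probe set carried that symbol alone. The members comprised 12 HSP70 and HSP110 genes, 2 HSP90 genes, 2 subunits of the mitochondrial chaperonin, 8 small heat shock proteins, 4 Dnaja, 12 Dnajb and 23 Dnajc genes, and Bag3. Hspa1b, Hspa8 and Hsp90aa1 share their probe sets with other symbols and are given as probe sets only. All 64 members were tested without a filter on low values, and 9 of them had a mean below the median of all probe sets.

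The left ventricles came from adult male Sprague-Dawley rats, with an aortocaval fistula (ACF) of 8, 16 or 24 weeks' standing (4 rats each) and from 4 control rats, with 1 array per rat. The ACF is a surgical opening between the abdominal aorta and the inferior vena cava that loads the heart with volume. By the study's account, rats at 8 weeks are in compensated hypertrophy (CH) and rats at 16 weeks are in heart failure (HF). The labels call the control rats baseline and name neither an operation nor the age at which they were killed, so ACF, surgery and age cannot be told apart. The titles of the 4 latest rats all give 24 weeks, whereas their descriptions give 24, 25, 26 and 27 weeks for replicates 1 to 4. Expression is given in log2 units above the median of the same array, a scale that compares a gene with itself across rats and not with other genes. The medians of the deposited arrays lay at 2 levels. The 24-week arrays were all at the lower level with 8-week replicate 2 and 16-week replicates 3 and 4 (5.92 to 5.96), and the control arrays were all at the higher level with the other ACF arrays (6.13 to 6.17). Centring removed the part of this step that all genes share. In bulk tissue, fewer cells of a type and less RNA per cell cannot be told apart. The 9 measured markers of ventricular cardiomyocytes had a mean level of 7.81 to 7.90 at 8 weeks, 7.46 to 7.88 at 16 weeks and 7.76 to 7.87 at 24 weeks, against 7.79 to 7.90 in control rats, and none of them passed the test. At 16 weeks 2 of the 9 had an unadjusted limma p under 0.05. In 16-week replicate 1 Ckm measured 6.13 and Myh6 6.71, against 7.42 to 7.69 and 8.01 to 8.17 in control rats.

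Chaperones keep other proteins folded. HSP70 binds exposed hydrophobic stretches of a client in cycles of ATP hydrolysis, J-domain proteins of the DnaJ family deliver the client and trigger hydrolysis, and HSP110 resets the cycle by exchanging the nucleotide. HSP90 acts later on kinases and hormone receptors, and the small heat shock proteins hold unfolding proteins without ATP, many of them in quantity in striated muscle. After heat or proteotoxic stress, the factor HSF1 binds heat shock elements, inverted repeats of the unit GAA, and switches on an inducible subset of these genes. Chaperones of the endoplasmic reticulum (ER) answer instead to the unfolded protein response, whose factor ATF6 acts with NF-Y on ER stress elements.

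Promoters are shown for some of the members described below, and not for all members with a match. RefSeq promoters of the build GRCr8 were found for 52 of the 64 members and searched on both strands, from 250 bases before the annotated start to 30 bases after it. The heat shock element of 3 units, GAANNTTCNNGAA, occurred in 0.747% of 33469 rat promoters and in 4 members, namely Dnaja1, Hspd1, Hspe1 and Hsph1. The element of 2 facing units, GAANNTTC, is contained in it, reads the same on both strands, and occurred in 8.04% of promoters and in 12 members. These were Bag3, Dnaja1, Dnajb1, Dnajb6, Dnajc18, Hspa9, Hspb1, Hspb6, Hspb8, Hspd1, Hspe1 and Hsph1. Hspa1a was not among them, and a member whose promoter was not found could not be. The ER stress element, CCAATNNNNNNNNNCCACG, occurred in 0.0657% of promoters and in 3 members, namely Dnajc3, Hsp90b1 and Hspa5. Capitals mark the matches in the sequences below, which run 5′ to 3′ on the strand of the gene, and a match is a description of the letters and not evidence of binding. Those of Hsph1 (chr12:10427288-10427397, plus strand), Dnaja1 (chr5:60638324-60638433, plus strand), Dnajb1 (chr19:41431112-41431221, minus strand) and Hspb1 (chr12:26432342-26432451, minus strand) belong to heat-inducible members.
Hsph1: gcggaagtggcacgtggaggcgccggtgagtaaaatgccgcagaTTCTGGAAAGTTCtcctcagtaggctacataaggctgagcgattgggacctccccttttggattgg
Dnaja1: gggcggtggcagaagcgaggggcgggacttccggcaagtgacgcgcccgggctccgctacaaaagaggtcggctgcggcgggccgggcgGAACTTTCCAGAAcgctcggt
Dnajb1: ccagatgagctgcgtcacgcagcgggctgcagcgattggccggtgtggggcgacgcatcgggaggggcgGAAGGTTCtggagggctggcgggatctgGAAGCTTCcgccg
Hspb1: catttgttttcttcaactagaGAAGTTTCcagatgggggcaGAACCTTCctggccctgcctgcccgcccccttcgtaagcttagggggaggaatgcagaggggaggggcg
The element of Hsph1, read on the other strand, has the same 13 letters as that of Dnaja1. Hspe1 (chr9:64084227-64084326, plus strand) shares its 18-base element with Hspd1, since the annotated starts of this divergent pair lie 290 bases apart. Hspa5 (chr3:38452936-38453045, plus strand) and Hsp90b1 (chr7:23012334-23012483, minus strand) show the ER stress element, once and at 2 positions.
Hspe1: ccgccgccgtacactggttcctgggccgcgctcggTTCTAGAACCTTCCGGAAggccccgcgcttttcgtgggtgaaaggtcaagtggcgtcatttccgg
Hspa5: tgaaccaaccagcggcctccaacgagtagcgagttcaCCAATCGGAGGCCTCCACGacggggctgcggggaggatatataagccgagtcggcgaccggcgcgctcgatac
Hsp90b1: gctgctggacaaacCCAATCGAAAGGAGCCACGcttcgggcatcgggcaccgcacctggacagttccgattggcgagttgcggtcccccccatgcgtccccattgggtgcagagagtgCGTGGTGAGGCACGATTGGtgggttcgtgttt

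Most members did not pass the test at any time after ACF, by limma with Benjamini-Hochberg adjustment over all 14218 genes at an adjusted p under 0.05. At 8 weeks 0 of 64 members passed, beside 0.0492% of all genes higher and 0.00703% lower. At 16 weeks 3 members were higher (4.69%), Hspb1, Dnajc2 and Dnajc10, beside 5.83% of all genes, and 0 were lower, beside 3.26%. At 24 weeks 0 members passed, beside 0.612% of all genes higher and 0.295% lower. The share of members called higher at 16 weeks was thus close to that of all genes, and in either direction it was 4.69%, beside 9.09%. Members with an unadjusted p under 0.05 numbered 1 at 8 weeks (1.56%, beside 7.82% of all genes), 13 at 16 weeks (20.3%, beside 24.3%) and 16 at 24 weeks (25.0%, beside 16.2%). At 8, 16 and 24 weeks the 64 members had median log2 fold changes against control of 0.03, 0.09 and 0.06, beside -0.003, -0.002 and 0.001 over all genes.

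**Figure D1:**
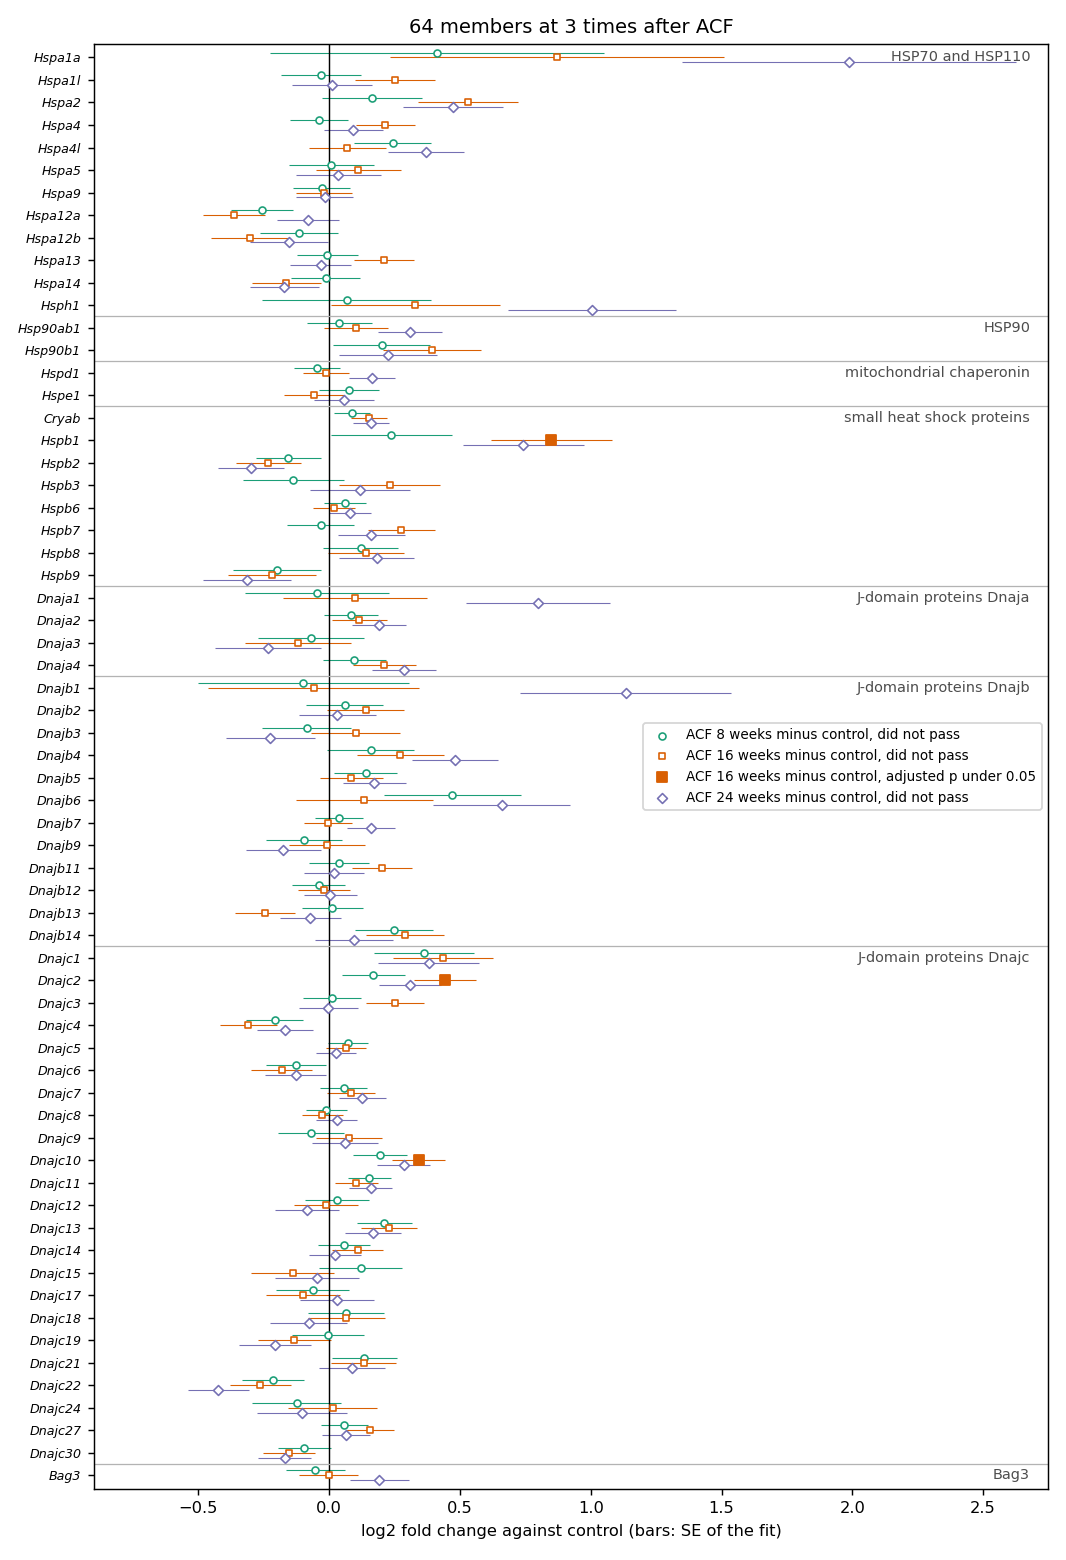
Log2 fold change against control (x axis) of each of the 64 members (y axis, by family) at 8, 16 and 24 weeks after ACF, with the SE of the fit as bars and filled symbols for an adjusted p under 0.05. Filled symbols are Hspb1, Dnajc2 and Dnajc10 at 16 weeks, and the open symbols of Hspa1a, Dnajb1, Hsph1 and Dnaja1 at 24 weeks lie at 0.80 to 1.99.

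The fold threshold of the study's methods, over 1.5, was combined with an unadjusted limma p under 0.05. The limma p stands in for the test of the methods, so this is not the study's own criterion. At 8 weeks 0 members met it (1.58% of all genes), and at 16 weeks Hspb1 alone (1.56% of members, 6.06% of all genes). At 24 weeks 6 members met it (9.38%, beside 3.0% of all genes), namely Hspa1a, Hsph1, Dnajb1, Dnaja1, Hspb1 and Dnajb6, all of them higher. By exact permutation, p was 0.143 for Dnajb1 and Dnaja1, 0.0571 for Hspa1a and Dnajb6, and 0.0286 for Hsph1 and Hspb1. The 24-week count thus depends on the test. The ACF arrays lay all above or all below the control arrays for 1 member at 8 weeks (1.56%, beside 6.16% of all genes), 8 at 16 weeks (12.5%, beside 16.4%) and 10 at 24 weeks (15.6%, beside 9.28%). Cryab was in this count at all 3 times, and Hspb1, Dnajc2 and Hsph1 were in it at 16 and 24 weeks. Over all genes, 829 were higher and 463 lower at 16 weeks, but 706 and 714 after centring on the median of the genes tested, and 359 and 1006 in the arrays as deposited. At 24 weeks 87 genes were higher and 42 lower, or 78 and 57 with centring on the genes tested, and 81 and 1594 as deposited.

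Several heat-inducible chaperones lay far above control in 2 of the 4 rats at 24 weeks. Hspa1a, the stress-inducible HSP70, measured 5.63, 7.25, 3.38 and 3.11 in replicates 1 to 4 at 24 weeks, against 2.76, 2.80, 3.18 and 2.69 in control rats. Replicates 2 and 1 thus stood far above every control rat, whereas replicate 3 lay just above the highest control rat and replicate 4 inside the control range. At 16 weeks Hspa1a measured 4.56, 3.43, 3.26 and 3.65, all above control, and at 8 weeks 2.96, 2.93, 4.10 and 3.09, with replicate 3 apart from the rest. The 24-week mean was 4.84 ± 1.96 against 2.86 ± 0.22 in control rats (SD, n = 4 each), a log2 fold change of 1.99 (SE 0.64, 95% interval 0.64 to 3.33) that did not pass (limma adjusted p = 0.132, exact permutation p = 0.0571). Among the SDs of all 14218 genes at 24 weeks, that of Hspa1a ranked 6, that of Dnajb1 20, that of Hsph1 48 and that of Dnaja1 69.

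Hsph1 and the J-domain genes Dnajb1 and Dnaja1 were highest in the same rats. Hsph1, the inducible HSP110, measured 4.74, 5.83, 3.82 and 3.56 at 24 weeks, against 3.46, 3.53, 3.43 and 3.49 in control rats. All 4 rats at 24 weeks exceeded control, with a mean of 4.49 ± 1.03 against 3.48 ± 0.04 (SD, n = 4 each), and the log2 fold change of 1.00 (SE 0.32, 95% interval 0.33 to 1.68) had an adjusted p of 0.131 in limma and an exact permutation p of 0.0286, the smallest that 4 against 4 rats allow. Dnajb1, the inducible J-domain partner of HSP70, measured 3.74, 5.32, 2.90 and 2.30 at 24 weeks, against 2.39, 2.41, 2.42 and 2.50 in control rats. Replicate 4 lay below every control rat, and the log2 fold change was 1.13 (SE 0.40, limma adjusted p = 0.167). Dnaja1, a cytosolic J-domain protein that works with HSP70 in folding and protein import, measured 5.04, 5.77, 4.23 and 3.82 at 24 weeks, against 3.88, 3.93, 3.91 and 3.96 in control rats. Its log2 fold change was 0.80 (SE 0.28, limma adjusted p = 0.156), with replicate 4 again under the lowest control rat. Before 24 weeks Dnajb1 and Dnaja1 stayed between 2.17 and 2.69 and between 3.69 and 4.19, whereas Hsph1 at 16 weeks measured 3.76, 3.91, 3.85 and 3.72, above all control rats.

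**Figure D2:**
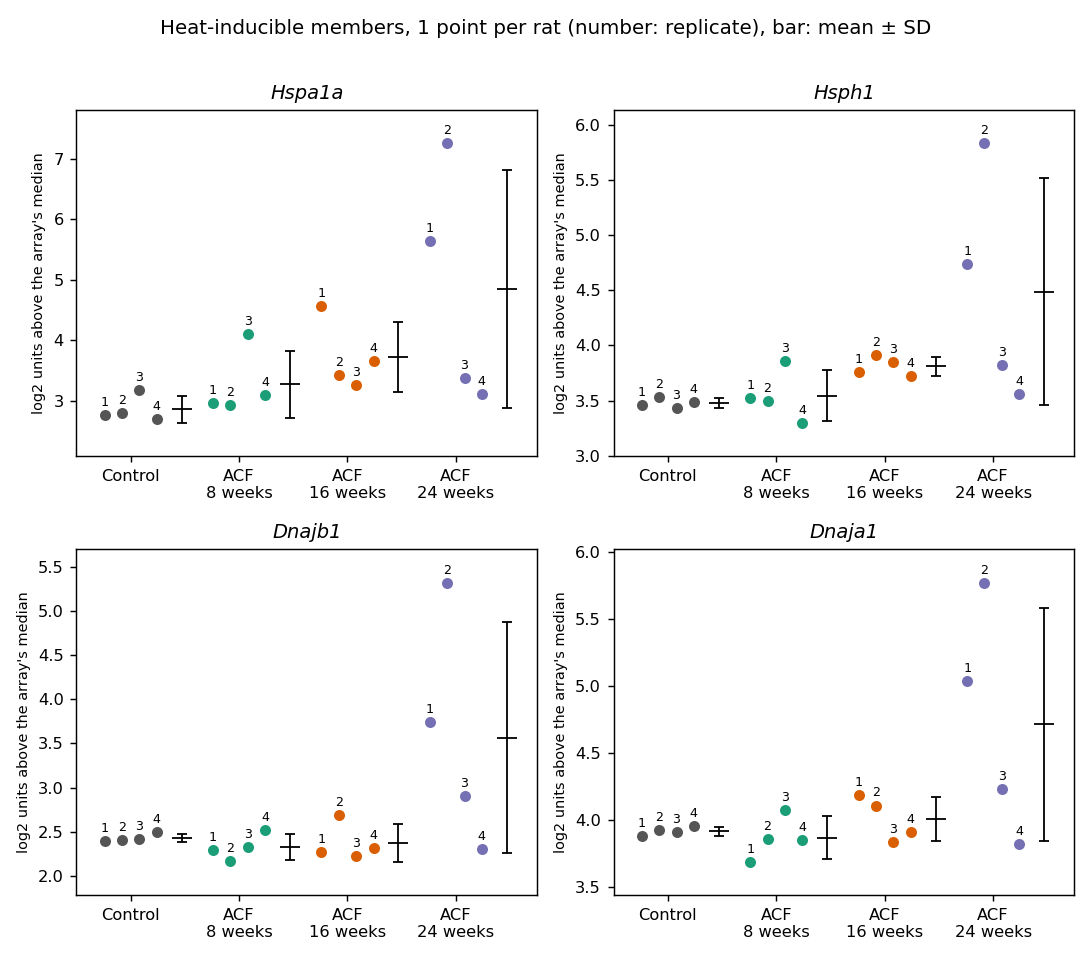
Level of Hspa1a, Hsph1, Dnajb1 and Dnaja1 in each rat (y axis, log2 units above the array's median), with numbers for the replicate and a bar for the mean ± SD of 4 rats per group. In all 4 panels 24-week replicate 2 is the highest point and replicate 1 the next, and replicate 4 lies close to the control points.

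The calls for these genes depended on single rats and on the weight given to each array. Without 24-week replicate 4, Hspa1a (2.56), Hsph1 (1.31), Dnajb1 (1.56), Dnaja1 (1.10) and Hspb1 (0.91) passed as higher and Dnajc22 as lower, 6 members in all. Calls over all genes also increased in that setting, to 558 (3.92%), against 129 (0.907%) with all arrays. With array weights and all rats kept, Hspa1a, Hsph1, Dnajb1, Dnaja1 and Hspb1 also passed at 24 weeks (limma adjusted p 0.0277 to 0.0346), beside 5.83% of all genes. The smallest weight, 0.435, was that of 24-week replicate 4. Without replicate 2, the log2 fold changes of Hspa1a, Hsph1, Dnajb1 and Dnaja1 were 1.19, 0.56, 0.55 and 0.45 and none of them passed. The 3′ to 5′ signal difference of the GAPDH control probe sets, which widens as RNA is degraded, was 0.56, 0.75, 0.64 and 0.62 in 24-week replicates 1 to 4, against 0.37 to 0.67 in control rats, and that of beta-actin was 1.42, 1.71, 1.74 and 1.54, against 1.25 to 1.88. Replicate 2 had the highest GAPDH value of all 16 arrays, while replicate 1 lay inside both control ranges. The part of RNA quality in the differences between rats was not tested.

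Other probe sets of the same genes gave the same order of rats. A dimmer probe set of Hsph1 measured 3.22, 4.38, 2.06 and 1.86 at 24 weeks, against 1.80, 1.81, 1.25 and 1.54 in control rats. That of Dnajb1 measured 2.13, 3.40, 1.07 and 0.55, against 0.73, 0.54, 0.38 and 0.89, and that of Dnaja1 4.03, 4.53, 3.02 and 2.53, against 2.66, 2.84, 2.72 and 2.98. Replicate 2 was the highest and replicate 1 the next in each of them. Of the 34 further probe sets of the 25 members that had several, 20 had the sign of the chosen one at 8 weeks, 20 at 16 weeks and 17 at 24 weeks, so that the probe sets of a member often differed in direction.

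Some probe sets carry the symbol of a member beside another symbol. The probe set annotated to Hspa1b and Hspa1a together, 2 nearly identical stress-inducible HSP70 genes whose signal cannot be assigned to one of them, measured 5.41, 6.84, 0.46 and 0.42 at 24 weeks, against 0.11, 0.10, 0.42 and 0.74 in control rats. Replicates 1 and 2 were over 4 log2 units above every control rat and replicates 3 and 4 were inside the control range. At 16 weeks the same probe set measured 1.77, 0.91, 0.48 and 0.64, with replicates 3 and 4 again inside the control range. The brighter probe set of Hsp90aa1 and a pseudogene of it measured 6.70, 6.79, 6.59 and 6.31 at 16 weeks and 6.66, 7.27, 6.47 and 6.15 at 24 weeks, against 5.62, 5.98, 5.81 and 5.96 in control rats. Hsp90aa1 is the stress-inducible cytosolic HSP90, and in this probe set all rats at both times exceeded all control rats. In the dimmer one 24-week replicate 4 measured 4.39, inside the control range of 3.81 to 4.53. In the brighter one the log2 fold change was 0.75 (SE 0.19) at 16 weeks, which passed over all 31099 probe sets (limma adjusted p = 0.0246), and 0.80 at 24 weeks, which did not (adjusted p = 0.0669). The probe set of Hspa8, the constitutive HSP70, and Haus8l2 measured 7.49, 7.64, 7.37 and 7.27 at 24 weeks, against 7.17, 7.25, 7.11 and 7.25 in control rats, with a log2 fold change of 0.25 (adjusted p = 0.200).

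Over the members as a whole, replicate 2 was the rat that stood out at 24 weeks. It had the highest value of the 24-week rats in 36 of 64 members (56.2%), beside 28.0% of all genes, and in 8 of the 9 measured heat-inducible members. It exceeded the control mean by more than 1 log2 unit in 6 members, which were Hspa1a, Hsph1, Dnajb1, Dnaja1, Hspb1 and Hspa2. Replicate 1 did so in 4, Hspa1a, Hsph1, Dnajb1 and Dnaja1, and replicates 3 and 4 in 0. In the same rats 0.633%, 2.05%, 1.33% and 0.274% of all genes exceeded the control mean by that much. At 16 weeks replicates 1 to 4 did so in 2 (Hspa1a and Hspa2), 1 (Hspb1), 1 (Dnajb6) and 0 members, and at 8 weeks only replicate 3 did so, in Hspa1a. In 0 rats was a member more than 1 log2 unit below the control mean.

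**Figure D3:**
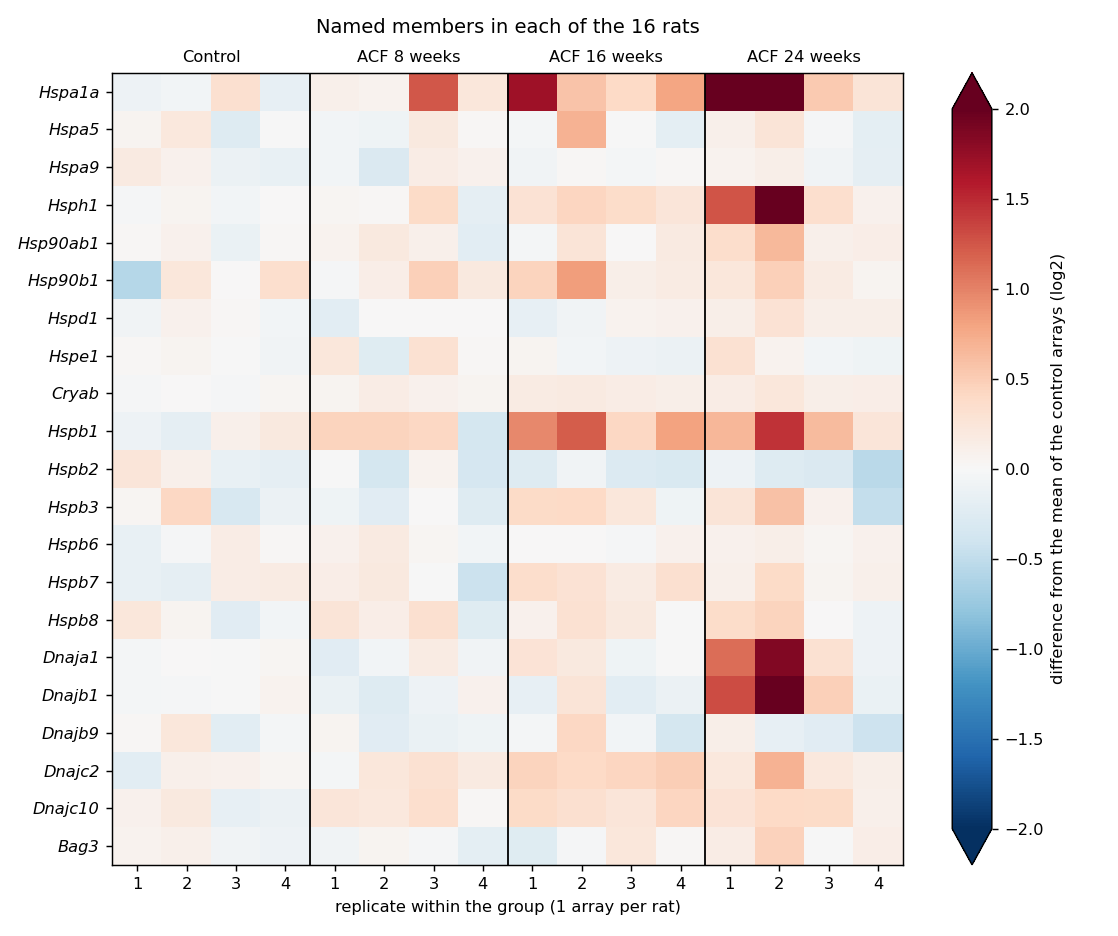
Difference of 21 named members (rows) from the mean of the control arrays in each of the 16 rats (columns, by group and replicate), in log2 units with colours saturated at 2. Hspa1a, Hsph1, Dnaja1 and Dnajb1 are all deep red in 24-week replicates 1 and 2, Hspa1a is also red in 16-week replicate 1 and 8-week replicate 3, and the cells of Hspb1 are red in all 16-week rats.

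Of the 11 genes listed as heat-inducible, 9 were measured by a probe set of their own. The list was chosen with earlier results of these data known, so the shares below describe these 9 genes and give no independent support. All 9 had a log2 fold change above 0 at 24 weeks, with a median of 0.74 beside 0.001 over all genes, and 6 had an unadjusted p under 0.05 (66.7%, beside 16.2% of all genes), but 0 passed. Their mean difference from the control mean was 0.87, 1.55, 0.27 and 0.07 log2 units in 24-week replicates 1 to 4, 0.14 to 0.32 in the 16-week rats and -0.04 to 0.28 in the 8-week rats. The other 4 measured genes of the list, Cryab, Hspd1, Hspe1 and Bag3, had log2 fold changes of 0.06 to 0.19 at 24 weeks. Hspd1, the mitochondrial chaperonin HSP60, measured 6.48, 6.66, 6.48 and 6.49 at 24 weeks, against 6.30, 6.46, 6.39 and 6.32 in control rats, a log2 fold change of 0.16 (95% interval -0.02 to 0.35, limma adjusted p = 0.372). Its partner Hspe1 measured 6.49, 6.26, 6.14 and 6.11, against 6.22, 6.25, 6.18 and 6.12, a log2 fold change of 0.06 (95% interval -0.19 to 0.30). Hsph1 and Dnaja1 carry the element of 3 units as well, and the difference between their fold changes and those of this pair was not tested. Bag3, the co-chaperone that joins HSP70 to small heat shock proteins at the Z-disc, measured 5.16, 5.47, 5.01 and 5.15 at 24 weeks, against 5.08, 5.11, 4.94 and 4.91 in control rats (log2 fold change 0.19, adjusted p = 0.421). Outside the list, Hsp90ab1, the constitutive cytosolic HSP90, measured 6.43, 6.73, 6.18 and 6.20, against 6.10, 6.16, 5.94 and 6.10, without overlap and with a log2 fold change of 0.31 (adjusted p = 0.222). Its dimmer probe set did overlap control, at 3.97, 4.22, 3.74 and 3.56, against 3.64, 3.49, 3.70 and 3.77.

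At 16 weeks, in HF, 1 of the 3 members that rose was a small heat shock protein. Hspb1, which protects actin filaments and holds unfolding proteins, measured 6.69, 6.94, 6.14 and 6.52 at 16 weeks, against 5.62, 5.54, 5.82 and 5.91 in control rats. The groups did not overlap, with means of 6.57 ± 0.34 and 5.72 ± 0.17 (SD, n = 4 each), and the log2 fold change was 0.85 (SE 0.23, limma adjusted p = 0.0294, exact permutation p = 0.0286). At 24 weeks Hspb1 measured 6.38, 7.17, 6.35 and 5.96, also above all control rats, with a log2 fold change of 0.74 that did not pass (adjusted p = 0.122). At 8 weeks 3 rats measured 6.14 to 6.17 and replicate 4 only 5.37 (log2 fold change 0.24, adjusted p = 0.905). The 16-week call of Hspb1 was lost without any one of control replicates 1 to 3 or 16-week replicates 1 and 2 (adjusted p 0.0582 to 0.0902), and it held in 20 of 27 settings.

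The other calls were Dnajc genes outside the heat-inducible list. Dnajc2, a ribosome-associated J-domain protein that assists nascent chains, measured 2.40, 2.35, 2.39 and 2.45 at 16 weeks, against 1.74, 2.05, 2.04 and 1.99 in control rats. Its log2 fold change was 0.44 (SE 0.12, limma adjusted p = 0.0281), with means of 2.40 ± 0.04 and 1.96 ± 0.14 (SD, n = 4 each). A dim second probe set of Dnajc2 measured -2.03, -2.03, -2.39 and -2.43, against -2.08, -2.09, -1.98 and -2.04, and the mean of both probe sets did not pass (adjusted p = 0.449). Dnajc2 passed in 17 of 27 settings, and was lost among others when the level of the arrays was blocked (limma adjusted p = 0.0653), with only arrays at the higher level (0.0564), as deposited (0.104), and without control replicate 1 (0.102) or any one 16-week rat (0.0501 to 0.0648). Dnajc10, an ER J-domain protein with disulphide reductase activity, measured 3.57, 3.50, 3.43 and 3.62 at 16 weeks, against 3.27, 3.38, 3.02 and 3.07 in control rats. Its log2 fold change was 0.34 (SE 0.10, limma adjusted p = 0.044), and it passed in 8 of 27 settings. The second probe set of Dnajc10 overlapped control, at 3.32, 3.08, 3.22 and 2.93, against 2.94, 2.98, 2.59 and 3.10. The mean of both did not pass (limma adjusted p = 0.0673). Without control replicate 1 or 16-week replicate 1, 0 members passed at 16 weeks, and the calls over all genes were 646 and 751, against 1292 with all arrays.

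**Figure D4:**
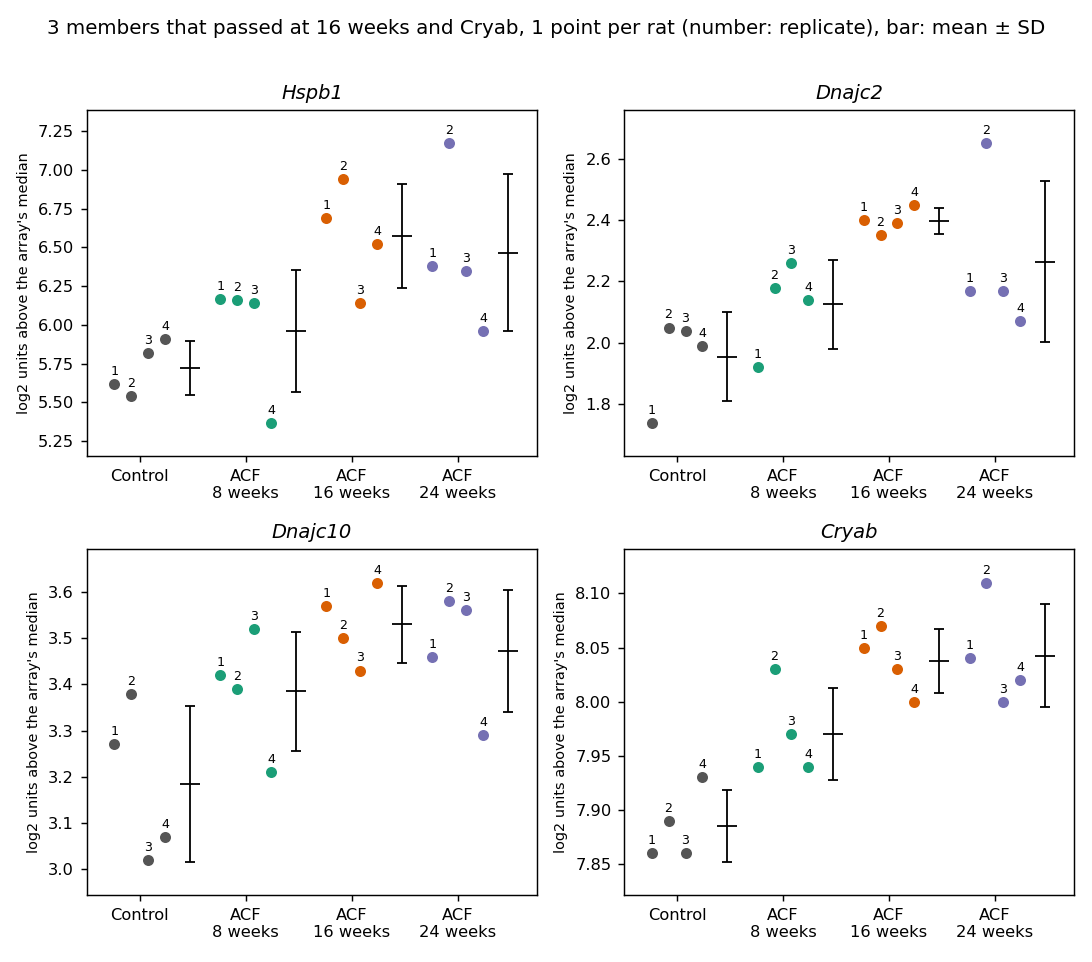
Level of Hspb1, Dnajc2, Dnajc10 and Cryab in each rat (y axis, log2 units above the array's median), with numbers for the replicate and a bar for the mean ± SD of 4 rats per group. The 16-week points lie above all control points in each panel, by 0.85 for the mean of Hspb1 and by 0.15 for that of Cryab, whose axis spans the least.

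Markers of other cell types also passed the test, at 8 weeks as well, when 0 members did. Of 8 macrophage markers, 2 passed as higher at 8 weeks, all 8 at 16 weeks and 4 at 24 weeks, with a mean level of 2.41 to 2.74, 2.62 to 3.35 and 2.12 to 2.77, against 1.47 to 1.86 in control rats. Of 7 fibroblast markers 4 passed as higher at 16 weeks (mean level 4.76 to 5.26) and Postn alone at 24 weeks (4.42 to 5.03), against 3.84 to 4.59 in control rats. Of 6 measured endothelial markers only Vwf passed, as higher at 16 and 24 weeks, and the log2 fold changes of the 6 at 16 weeks ran from -0.61 to 1.31. Of 5 T cell markers only Lck passed, as lower at 16 weeks. Nppa, listed as atrial, was higher at 16 weeks, but the other listed atrial genes did not rise with it. At 16 weeks Myl4 measured 0.82 to 3.12, Myl7 -0.57 to 4.01 and Sln 0.25 to 1.66. In control rats they measured -0.09 to 3.60, -0.45 to 6.34 and -0.39 to 2.50. Myl4, Myl7 and Sln exceeded these control ranges in 8-week replicate 2 (5.06, 6.91 and 3.19) and in 24-week replicate 3 (5.96, 6.55 and 4.30). Of the smooth muscle, adipocyte and erythroid markers 0 passed. The part of these cells in the levels of Hspb1, Dnajc2 and Dnajc10 was not tested. Nor was the part of atrial tissue in the differences between rats.

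The remaining small heat shock proteins, several of them abundant in cardiac muscle, did not pass. Cryab, alpha B-crystallin, measured 8.05, 8.07, 8.03 and 8.00 at 16 weeks and 8.04, 8.11, 8.00 and 8.02 at 24 weeks, against 7.86, 7.89, 7.86 and 7.93 in control rats. All ACF rats at 8, 16 and 24 weeks were above all control rats, but the log2 fold changes of 0.09, 0.15 and 0.16 were small and did not pass (limma adjusted p = 0.856, 0.180 and 0.254). The mean of Cryab over the 16 arrays was 7.98, and whether the array compresses differences at so high a level was not tested. Hspb7, a muscle-restricted member, had log2 fold changes of -0.03, 0.28 and 0.16 at 8, 16 and 24 weeks, and Hspb8, the partner of Bag3, had 0.12, 0.14 and 0.18. Hspb6, which regulates muscle relaxation as a target of cyclic nucleotide signalling, had 0.06, 0.02 and 0.08. Hspb2 lay lower, at -0.16, -0.23 and -0.30, and its muscle partner Hspb3 had -0.14, 0.23 and 0.12. The dim Hspb9 measured -1.29, -1.31, -1.04 and -1.01 at 24 weeks, against -1.04, -0.95, -0.26 and -1.12 in control rats. None of these passed.

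Chaperones of the ER gave 1 call, at 16 weeks, and small fold changes at 24 weeks. Hspa5, the ER HSP70 known as BiP, measured 5.55, 5.71, 5.43 and 5.26 at 24 weeks, against 5.50, 5.67, 5.19 and 5.45 in control rats, a log2 fold change of 0.03 (95% interval -0.31 to 0.38). At 16 weeks replicate 2 stood at 6.15 and the other 3 between 5.25 and 5.45. Hsp90b1, the ER HSP90, also had its highest value of all rats in 16-week replicate 2 (5.71), and its log2 fold change was 0.39 at 16 weeks (SE 0.19, limma adjusted p = 0.209) and 0.23 at 24 weeks. Dnajb9, an ER J-domain protein that acts on BiP, had log2 fold changes of -0.10, -0.01 and -0.17. Of the 8 ER members, Dnajc10 passed at 16 weeks, where the median log2 fold change was 0.23, and 0 passed at 8 or 24 weeks. Among 25 measured genes of the unfolded protein response, Edem1, which directs misfolded glycoproteins to degradation, rose at 16 weeks to 2.99, 2.56, 2.66 and 2.15, against 1.76, 1.99, 1.93 and 1.87 in control rats (log2 fold change 0.70, adjusted p = 0.0111), and 0 passed at 8 or 24 weeks.

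Mitochondrial members stayed close to control. The 7 of them had median log2 fold changes of -0.01, -0.06 and -0.02 at 8, 16 and 24 weeks, with single values between -0.23 and 0.16, and 0 passed. Hspa9, the mitochondrial HSP70 that pulls precursors through the inner membrane, measured 5.77, 5.87, 5.81 and 5.87 at 16 weeks and 5.92, 5.96, 5.78 and 5.66 at 24 weeks, against 6.02, 5.94, 5.73 and 5.70 in control rats. In the list of 17 measured genes of mitochondrial import and quality control, 2 fell at 16 weeks. Timm44, which ties Hspa9 to the import channel, measured 1.09, 1.39, 1.73 and 1.89 at 16 weeks, against 2.16, 2.21, 2.12 and 2.05 in control rats (log2 fold change -0.61, limma adjusted p = 0.0347). Clpp, a matrix protease, measured 3.02, 3.24, 3.37 and 3.50, against 3.71, 3.78, 3.74 and 3.44 (log2 fold change -0.38, adjusted p = 0.0439), with 16-week replicate 4 inside the control range. Neither passed at 8 or 24 weeks.

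Some members are named here after their values were seen. Dnajb6, which suppresses protein aggregation, measured 2.36, 2.30, 2.45 and 1.56 at 24 weeks, against 1.43, 1.52, 1.62 and 1.46 in control rats (log2 fold change 0.66, limma adjusted p = 0.221). Over the 16 rats its values fell either between 1.27 and 1.62 or between 2.30 and 2.54. Dnajb6 also shares probe sets with pseudogenes of it. The dimmer measured 1.83, 1.86, 1.91 and 1.92 at 24 weeks, against 2.33, 2.24, 1.71 and 1.81 in control rats. The brighter measured 2.54, 2.78, 2.60 and 2.49, against 2.25, 2.46, 2.48 and 2.03. Neither of these probe sets showed such separate ranges. Dnajc22 lay below all control rats at 24 weeks, at -0.74, -0.94, -0.99 and -0.64, against -0.27, -0.49, -0.34 and -0.50, with the smallest adjusted p of a member at that time (log2 fold change -0.42, adjusted p = 0.0837). Hspa2, an HSP70 best known from the testis, measured -0.31, -1.31, -1.05 and -0.91 at 16 weeks, against -1.56, -1.39, -1.29 and -1.46 in control rats (log2 fold change 0.53, adjusted p = 0.0917). None of these 3 passed.

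Co-chaperones of HSP70 and HSP90 gave calls in both directions at 16 weeks. Of 24 measured genes in the list, Fkbp4, an immunophilin that favours nuclear entry of steroid receptors, fell to 2.17, 2.64, 2.57 and 2.86 at 16 weeks, against 3.63, 3.37, 3.28 and 3.24 in control rats (log2 fold change -0.82, limma adjusted p = 0.00245). Its counterpart Fkbp5, which is induced by glucocorticoids, rose to 4.27, 3.31, 3.11 and 2.96, against 2.56, 1.84, 2.77 and 2.73 (log2 fold change 0.94, adjusted p = 0.0449). Both sets of rats were separate from control, in opposite directions. Cdc37, which brings kinases to HSP90, fell with a log2 fold change of -0.33 (adjusted p = 0.0433), and 0 of the 24 passed at 8 or 24 weeks. Chordc1, Stip1 and St13 were highest in the same rats at 24 weeks, but they were picked from the list after their values were seen, so this lends no support. Others of the list did not have that order, such as Cdc37 with 4.40, 4.19, 4.23 and 4.37 at 24 weeks. Chordc1 measured 4.46, 4.70, 3.71 and 3.55, against 3.71 to 3.93 in control rats, Stip1 3.76, 3.95, 3.25 and 3.04, against 3.23 to 3.37, and St13 4.16, 4.30, 3.80 and 3.67, against 3.57 to 3.74. None of the 3 passed (limma adjusted p = 0.538, 0.556 and 0.264). Of 4 measured heat shock factors and regulators and of 13 measured genes of the cytosolic chaperonin TRiC and prefoldin, 0 passed at any time. Hsf1 itself had log2 fold changes of -0.04, -0.08 and -0.05 at 8, 16 and 24 weeks.

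No difference between ACF times passed for any member. Between 16 and 8 weeks 0 of 64 members and 0.0% of all genes passed in limma, with 6 members at an unadjusted p under 0.05, and between 24 and 16 weeks 0 members and 0.0% of all genes passed, with 4. Over all genes 1235 and 1279 had an unadjusted p under 0.05. The equal-variance test of the study's methods also gave 0 members in both. The log2 difference of Dnajb1 between 24 and 16 weeks was 1.19 (SE 0.40, adjusted p = 0.448) and that of Dnaja1 0.70 (adjusted p = 0.489), whereas that of Hspb1 between 16 and 8 weeks was 0.61 (SE 0.23, adjusted p = 0.458). The comparisons with control share the same 4 control rats, so a value past the threshold at 16 weeks and not at 8 or 24 weeks does not show that the times differ.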

How the data were processed

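Total RNA of 16 left ventricles was hybridised to 1 Affymetrix array per rat, in 4 groups of 4 separate animals, and the number of arrays limits the precision. The authors deposited log2 intensities that RMA had background-corrected, quantile-normalized and summarised per probe set, run in Affymetrix Expression Console 1.2 per the submitters' processing notes. The study's methods name the Rat Gene 1.0 ST array, whereas the deposited probe sets carry the names of a different Affymetrix rat array. Rats of other treatment arms of the study were not analysed here.

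Each array was centred on its median over 31099 probe sets. Of these, 20832 had 1 gene symbol, 436 several and 9831 none in the annotation used. Gene IDs of 20764 were found in the RefSeq table of GRCr8, which changed 0 symbols. The probe set with the highest mean over the 16 arrays represented each of 14218 genes. Group means were fitted with limma 3.58.1 (R 4.3.3) on all 16 arrays, and p-values were adjusted by Benjamini-Hochberg over all genes, with a threshold of 0.05. Single members were also compared by exact permutation (two-sided, 4 rats against 4), where 0.0286 is the smallest p possible. On simulated data of 14218 genes with known changes, the fit recovered 91%, 94% and 92% of 2-fold changes and 66%, 67% and 59% of 1.5-fold changes at 8, 16 and 24 weeks. Each simulated gene had the same spread in all groups. The SD of Hspa1a was 1.96 at 24 weeks and 0.22 in control rats, so these rates do not apply to genes of that kind. Tables and plots were made with Python 3.11.15, pandas 2.3.3 and matplotlib 3.10.9.

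Members and lists were chosen with earlier results of these data known. Members named were those that passed in any comparison, with a fixed set of inducible and best-known members (21 in all), and from each related list up to 4 genes that passed. Dnajb6, Dnajc22, Hspa2, Chordc1, Stip1, St13 and Hsf1 lie outside this rule and were chosen after their values were seen. Alternatives were the arrays as deposited, cyclic loess, the array level as a block, only arrays at the higher level, the replicate number as a block, the methods' t-test, the upper 50% of genes by mean, the average over all probe sets of a gene, array weights and leaving out each array. Centring on the median of the genes tested was added after seeing the data.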

Additional observations from a re-analysis of the deposited data

Results flagged for a closer look

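In 5 of 84 groups of 4 rats examined for the named members, 1 rat stood apart from the other 3 by more than a gap test at 95% allows, and chance alone does so in about 5% of groups. Hspa1a measured 4.10 in 8-week replicate 3, against 2.93 to 3.09 in the other 8-week rats, and the shared probe set of Hspa1b and Hspa1a was also highest there among the 8-week rats. Hspb1, a small heat shock protein, measured 5.37 in 8-week replicate 4, against 6.14 to 6.17 in the other 3. Hspd1, the mitochondrial chaperonin, measured 6.15 in 8-week replicate 1, against 6.37 to 6.38, and 6.66 in 24-week replicate 2, against 6.48 to 6.49. Dnajc2 measured 2.65 in 24-week replicate 2, against 2.07 to 2.17 in the other 24-week rats. That rat also had the highest Hspa1a, Hsph1, Dnajb1 and Dnaja1 of all 16.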

How the results depend on the processing

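At 8 weeks and between ACF times, 0 members passed under every alternative run. At 16 weeks 3 members passed (beside 9.09% of all genes), against 5 with cyclic loess (10.7%), 7 with only arrays at the higher level (13.0%) and 1 with the average over all probe sets of a gene (8.38%), and 0 to 4 when an array was left out. At 24 weeks 0 passed (0.907% of all genes), against 4 as deposited, all lower (11.8%), 7 with array weights (5.83%) and 0 to 6 when an array was left out. The arrays at the higher level gave no 24-week value, since all 24-week arrays were at the lower level. Over all genes, 8, 1292 and 129 passed at 8, 16 and 24 weeks. With array weights 186 passed at 8 weeks and 829 at 24 weeks, with the array level as a block 30 and 2, and as deposited 1 and 1675. Only arrays at the higher level gave 46 at 8 weeks, and the methods' t-test gave 0, 220 and 0 at 8, 16 and 24 weeks after adjustment. As deposited, all genes had a median log2 fold change of -0.059, -0.120 and -0.205 at 8, 16 and 24 weeks.

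Some fold changes of named members turned their sign. As deposited at 24 weeks these were Hspa5 (-0.17), Hspd1 (-0.04), Hspe1 (-0.15), Hspb3 (-0.09), Hspb6 (-0.13), Hspb7 (-0.05), Hspb8 (-0.03), Cryab (-0.05) and Bag3 (-0.01), together with Hspb6 at 16 weeks (-0.10) and, between 24 and 16 weeks, Hspb6 (-0.03) and Cryab (-0.08). With the array level as a block they were Hspa9 (0.12), Dnajb9 (0.12) and Bag3 (-0.02) at 24 weeks and Hspe1 (0.07) and Dnajb9 (0.14) at 16 weeks, and with only arrays at the higher level Dnajb9 at 16 weeks (0.18). When each array was left out in turn, Hspa5 ranged from -0.09 to 0.22 at 16 weeks, from -0.09 to 0.21 for 16 against 8 weeks and from -0.18 to 0.12 for 24 against 16 weeks, turning without 16-week replicate 2. Hspb3 for 24 against 16 weeks ranged from -0.27 to 0.08, turning without 24-week replicate 4, and without 8-week replicate 4 Hspb7 was at 0.10 at 8 weeks. The mean of probe sets put Hsp90ab1 at -0.11 at 8 weeks. For the turns other than those of the uncentred arrays and the left-out rats, the cause was not tested.

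With the replicate number as a block, 2 members passed at 16 weeks, Hspb1 and Dnajc2. Deviations of same-numbered rats correlated at -0.322 to 0.236, over 0.1 in 5 of 24 pairs. The labels do not say whether rats of the same number share anything beyond it. All 24-week arrays were at the lower level and all control arrays at the higher, so level and group cannot be told apart between them. The arrays give no depth, and a dim probe set such as the second one of Dnajc2, which measured below the array's median in every rat, carries little signal.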
